A study of Mus musculus with 6 samples.

Results

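Mitochondrial ribosomal proteins are the nuclear-encoded proteins of the ribosome that works inside mitochondria. The genes were chosen by name: every protein-coding gene whose symbol starts with Mrpl (large subunit, 49 genes) or Mrps (small subunit, 29 genes) followed by a digit. That gave 78 of the 17567 genes in each library. The rule uses no measured value, although it was set with earlier results of these data known. They were followed in immature dendritic cells of the mouse, which take up antigen and have yet to mature, treated with hydrogen peroxide (H2O2) or left as controls. H2O2 stood in for reactive oxygen species, and the series asked how an oxidative stress of this kind changes the transcriptome.

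The H2O2 group was exposed to 100 µM H2O2 for 24 h. The control group came from the same culture scheme with no H2O2 named in its labels. What the controls received in its place over those 24 h is not given in the sources used here. Both groups were grown from femur and tibia marrow of 6-week-old male C57BL/6 mice in medium with 10% fetal bovine serum, 20 ng/mL GM-CSF and 10 ng/mL interleukin-4. The cells of day 6 were purified with magnetic beads against CD11c, an integrin of dendritic cells. No label says that replicates are separate mice or separate cultures, so p-values measure only the spread among these libraries and that spread may be technical.

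The labels list 6 samples, 3 per group. H2O2 replicate 3 held the same value as H2O2 replicate 1 in all 17567 genes and was counted once, which left 2 distinct H2O2 libraries and 3 control libraries. Their totals lay between 16232604 and 16672491 estimated counts. The 5 libraries fell into 2 sets that the labels do not name. Transcripts of 4 Y-linked genes summed to 95.1 CPM (counts scaled to a common library size with TMM factors) in H2O2 replicate 1 and 102 CPM in control replicate 1, called set A. They summed to 0.453 CPM in H2O2 replicate 2 and to 0.121 and 0.305 CPM in control replicates 2 and 3, called set B, although the mice were labelled male. The first principal component of all genes held 66.0% of the variance, and which libraries it separated is not given here. Because of the Y-linked split, H2O2 was compared with control in 1 fit with a term for the set, and within each set. Itgax, which encodes CD11c, was at 1496 and 2177 CPM in H2O2 replicates 1 and 2, against 1473, 2154 and 1940 CPM in control replicates 1, 2 and 3. Itgax did not stand for the other dendritic cell markers. Of 13 tested, 12 had a change below 0 with H2O2, Itgax being the exception, and 9 were called lower. Of all genes tested, 8.54% were called in either direction. Cd209a, not tested, had 0 counts in both H2O2 libraries, and 0, 6 and 1 counts in control replicates 1, 2 and 3.

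Mitochondria keep a small genome of their own, and its messenger RNAs encode core subunits of the respiratory chain and of ATP synthase. These messages are translated in the matrix by the mitochondrial ribosome, or mitoribosome, whose RNA is made inside the organelle while all its proteins are encoded in the nucleus and imported. The small subunit reads the message, and the large subunit joins the amino acids and feeds the chain to the inner membrane. In mammals the mitoribosome is rich in protein and poor in RNA compared with its bacterial relatives. Some of its proteins belong to bacterial ribosomal families and others have no bacterial counterpart.

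The symbols do not always give a protein's present place. Mrps30 and Mrps18a carry small-subunit names, but in mammalian structures both proteins sit in the large subunit. Mrps36 is now assigned to the 2-oxoglutarate dehydrogenase complex. They are kept here under the subunit of their symbol.

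Promoter sequence was one feature that the choice by name did not use. Genes of mitochondrial function are known targets of the transcription factors NRF1 and GABP, an ETS family factor. RefSeq promoter sequences of the build GRCm38.p6 were found for 69 of the 78 genes, and the 250 bases before each start were searched on both strands. The NRF1 core GCATGCGC was in 8 of the 69 (11.6%), against 4.53% of the 9868 tested genes with a sequence and 2.32% of all 27025 genes of the table. Of these 8 genes, 7 were Mrpl genes (of 43 sequences) and 1 was an Mrps gene (of 26). The ETS motif CCGGAAG was in 17 (24.6%), against 14.3% of tested genes and 7.05% of all. One or both motifs were in 23 (33.3%), against 18.1% of tested genes and 9.07% of all.

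Motifs of 3 other factor classes were also counted. The antioxidant response element core TGACNNNGC, the motif class bound by the peroxide-responsive factor NRF2, was in 11 of 69 (15.9%), against 12.1% of tested genes and 10.1% of all. The E-box CACGTG, bound by MYC among others, was in 5 (7.25%), against 8.46% of tested genes and 6.05% of all. The YY1 core AAGATGG was in 6 (8.70%), against 4.33% of tested genes and 4.53% of all. A match is a run of letters and not a shown binding site.

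The sequences below lie upstream of 3 genes that were called between the library sets, and they show what the matches look like. Not every gene called between the sets holds a match: Mrpl1 and Mrpl28 had 0 of either motif. A link of the motifs to the set differences was not tested. Capitals mark letters matched by the NRF1 core or the ETS motif only, 5′ to 3′ on the strand of the gene. Matches of the other motifs are left in lower case, among them 1 YY1 core in the Mrpl52 sequence. Mrpl39 holds the NRF1 core on both strands in 1 overlapping run, in a 30-base stretch at chr16:84735350-84735379 (GRCm38.p6, minus strand) that ends 105 bases before the start. Mrps27 (chr13:99344636-99344785, plus strand) and Mrpl52 (chr14:54426759-54426908, plus strand) each hold 1 ETS match, CTTCCGG on the strand of the gene, in the last 150 bases before the start used by the promoter table. The RefSeq span of Mrps27 itself begins slightly upstream of that start, at position 99344767 of chromosome 13. For Mrpl39 an annotated exon of the gene reaches into the last 150 bases before its start. Whether that exon covers the 30-base stretch is not given here.
Mrpl39: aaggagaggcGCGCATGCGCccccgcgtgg
Mrps27: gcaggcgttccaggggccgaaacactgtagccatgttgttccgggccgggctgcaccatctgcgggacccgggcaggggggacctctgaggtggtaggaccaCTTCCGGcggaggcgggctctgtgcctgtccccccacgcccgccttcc
Mrpl52: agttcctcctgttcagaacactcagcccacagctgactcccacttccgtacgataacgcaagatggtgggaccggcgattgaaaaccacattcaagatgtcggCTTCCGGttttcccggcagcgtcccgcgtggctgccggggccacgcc

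All 78 genes passed the filter on low counts (filterByExpr, minimum count 10), so no gene was lost from the comparison. They are spread over 17 chromosomes, with 11 on chromosome 11 and 8 on chromosome 17. Single genes had between 57 and 946 counts in a library, with a median of 332, and the standard errors of their log2 changes lay between 0.0736 and 0.189. Mean levels over the libraries ranged from 3.89 CPM for Mrps28 to 50.01 CPM for Mrpl39. Together the 78 genes took 0.165% and 0.159% of all counts in H2O2 replicates 1 and 2, against 0.168%, 0.177% and 0.179% in control replicates 1, 2 and 3. In these shares of the raw totals both H2O2 libraries were below all 3 controls, by less than the range of the controls. In CPM scaled with TMM factors the 78 genes summed to 1623 and 1683 in H2O2 replicates 1 and 2, against 1616, 1785 and 1774 in control replicates 1, 2 and 3, and the groups overlapped.

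Per kilobase of transcript, which allows levels to be compared between genes, 4 members stood highest on average over the libraries. Mrps21, a small-subunit protein of a bacterial family, was at 59.3 CPM per kb, Mrpl30 at 55.9, Mrpl33 at 47.2 and Mrpl42 at 42.8. Mrpl24 and Mrpl18 followed at 38.7 and 34.7 CPM per kb. Among the Mrps genes, Mrps36 at 30.1 and Mrps15 at 29.1 CPM per kb came next after Mrps21. The lowest was Mrpl47 at 1.92. The median was 15.5 CPM per kb over the Mrpl genes and 11.6 over the Mrps genes. These levels divide by the mean length of the principal protein-coding transcripts, so a gene that mainly uses a shorter transcript is understated.

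**Figure D1:**
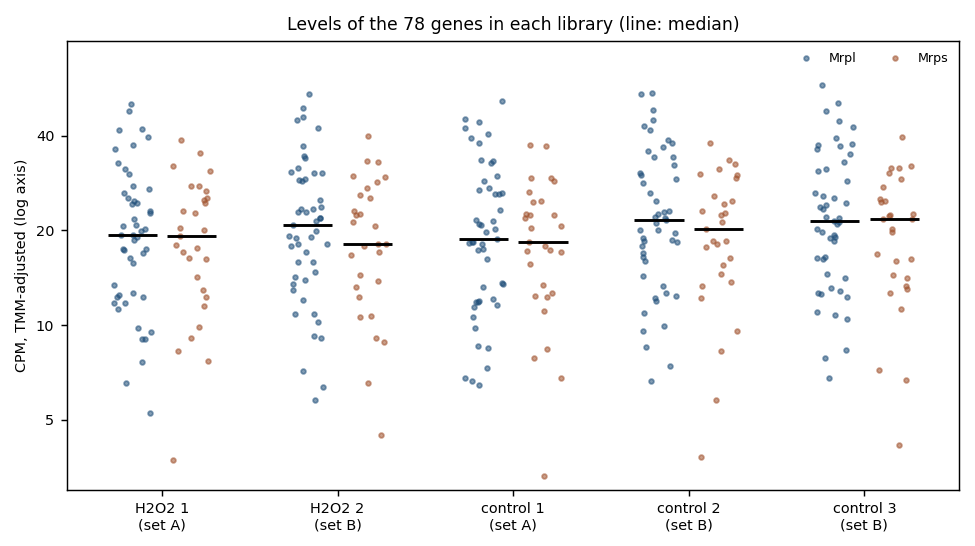
Level of each of the 78 genes in each library, in CPM adjusted by TMM factors on a log axis, with the H2O2 libraries left of the control libraries. Blue points are Mrpl genes, brown points Mrps genes, and the black line is the median, which lay between 18.8 and 21.6 CPM for Mrpl and between 18.1 and 21.6 CPM for Mrps.

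With H2O2, none of the 49 large-subunit and none of the 29 small-subunit genes changed past the threshold (0 of 49 and 0 of 29 called; edgeR's quasi-likelihood test with the set term, Benjamini-Hochberg adjusted p of at most 0.05 over 12209 genes). Of all genes tested, 8.54% were called in this fit, 480 higher and 563 lower with H2O2. Among the members 2 Mrpl genes, Mrpl13 and Mrpl19, and 0 Mrps genes had an unadjusted p under 0.05, and the smallest adjusted p was 0.170. DESeq2 with the set term called 0 members (0 with an unadjusted p under 0.05), and limma-voom 0 (2 Mrpl and 1 Mrps). Without the set term edgeR called 0% of all genes and 0 members, with 0 members at an unadjusted p under 0.05.

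The intervals show how large a change these libraries leave room for. The 95% interval of the change lay inside a 1.5-fold range either way for 45 of 49 Mrpl and 29 of 29 Mrps genes, and inside a 2-fold range for all 78. Of all genes tested, 65.2% had an interval inside the 1.5-fold range. The exceptions were Mrpl13, Mrpl54 and Mrpl57 on the lower side and Mrpl34 on the higher side. The intervals are from a model with 2 residual degrees of freedom among libraries and rest on spread shared across genes.

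**Figure D2:**
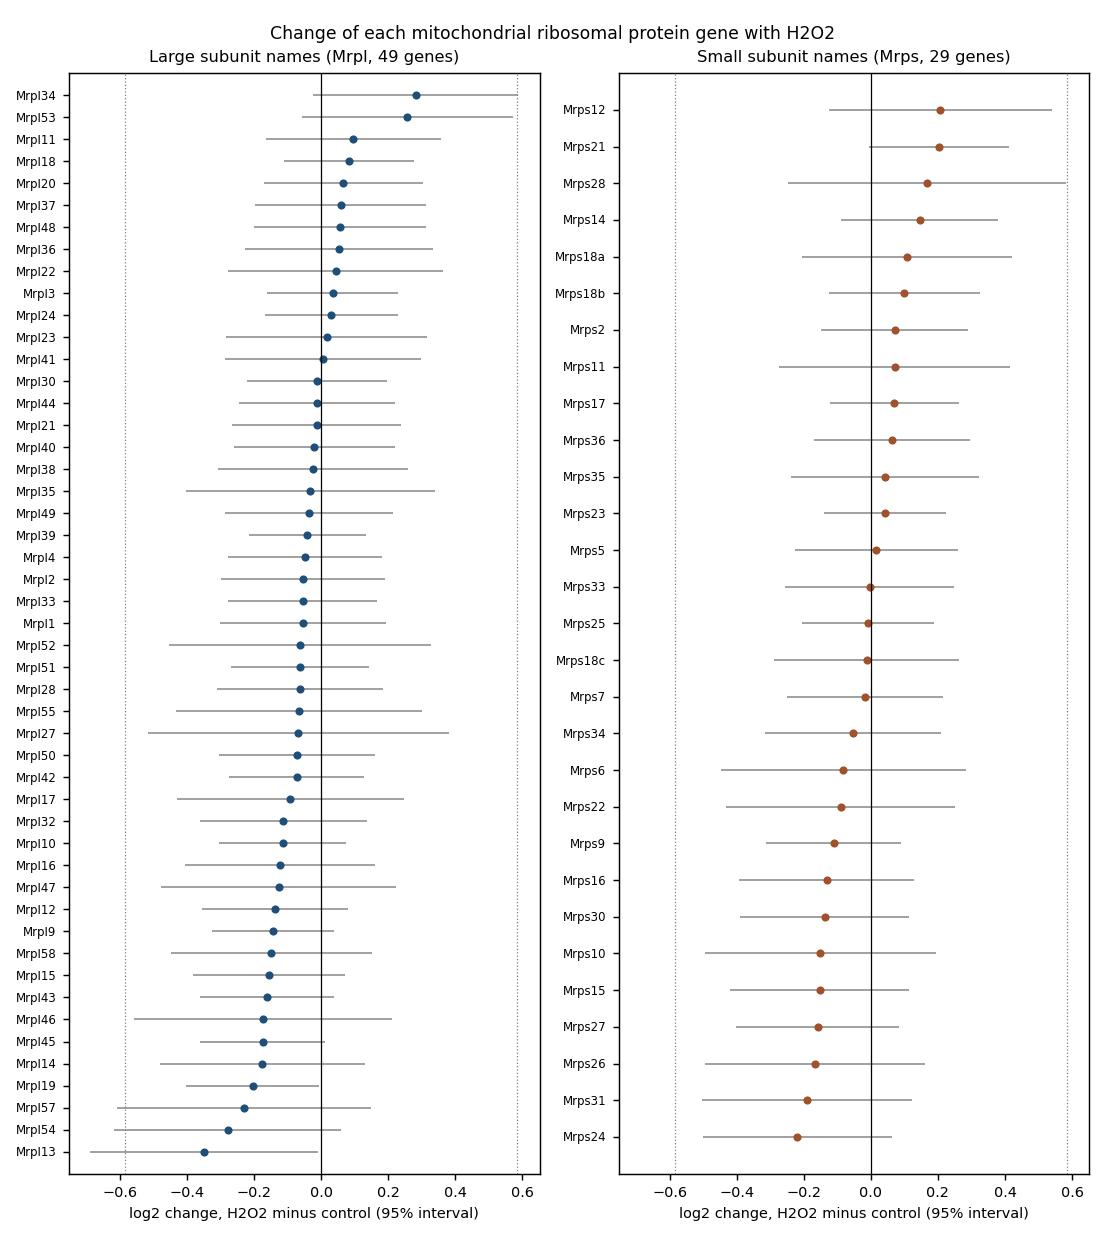
Log2 change with H2O2 against control (horizontal axis) of each Mrpl gene (left) and each Mrps gene (right), with 95% intervals from edgeR's fit with the set term; dotted lines mark a 1.5-fold change. The points lie between -0.35 and 0.28 for Mrpl and between -0.22 and 0.21 for Mrps.

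As groups, the large-subunit genes lay slightly under 0 and the small-subunit genes near it. The median log2 change was -0.06 over the Mrpl genes (36 of 49 below 0) and -0.01 over the Mrps genes (16 of 29 below 0), beside 0.01 over all genes tested (48.4% below 0). Single changes were small: the median size of a change, regardless of sign, was 0.07 for Mrpl and 0.10 for Mrps on the log2 scale, against 0.17 for all genes. Summed over the Mrpl genes, levels were 1049 and 1109 CPM in H2O2 replicates 1 and 2, against 1057, 1190 and 1182 CPM in control replicates 1, 2 and 3. H2O2 replicate 2 was above control replicate 1, so the groups overlapped. Over the Mrps genes the sums were 574 and 574 CPM in H2O2 replicates 1 and 2, against 559, 594 and 592 CPM in control replicates 1, 2 and 3. Both H2O2 libraries lay between the lowest and the highest control. With library totals in place of TMM factors the median of all genes shifted to -0.06, and the medians of the Mrpl and Mrps genes to -0.12 and -0.07. Relative to all genes they were then -0.06 and -0.02, as under TMM.

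The change was also read within each set. In set A, with 1 library per group and no test, the median log2 change was -0.01 for Mrpl (26 of 49 below 0) and 0.07 for Mrps (8 of 29 below 0), beside 0.01 for all genes. In set B it was -0.10 for Mrpl (41 of 49 below 0) and -0.04 for Mrps (15 of 29 below 0), beside 0.00 for all genes. The change was below 0 in both sets for 21 Mrpl and 6 Mrps genes, and above 0 in both for 3 Mrpl and 12 Mrps genes. Of all 12209 genes tested, 3969 were below 0 in both sets and 4025 above 0 in both. The difference of the change between the sets was called for 0 members and for 0.0164% of all genes (edgeR's quasi-likelihood test of the interaction, with 1 residual degree of freedom), and 2 Mrpl and 1 Mrps genes had an unadjusted p under 0.05. In bulk samples such as these, fewer cells of a type and less RNA per cell cannot be told apart.

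**Figure D3:**
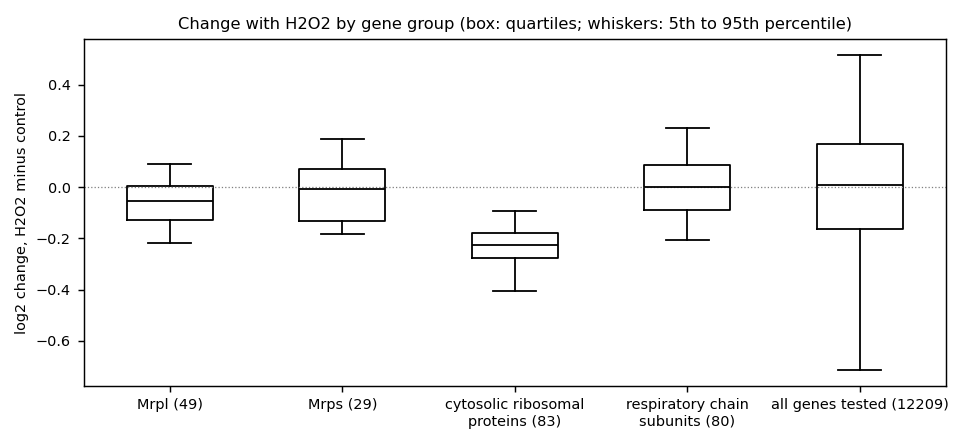
Log2 change with H2O2 against control in edgeR's fit with the set term, for Mrpl genes, Mrps genes, cytosolic ribosomal proteins, nuclear respiratory chain subunits and all genes tested; the line is the median, the box the quartiles and the whiskers the 5th and 95th percentiles. The medians are -0.06 for Mrpl, -0.01 for Mrps, -0.23 for cytosolic ribosomal proteins and 0.01 for all genes.

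Large-subunit members of bacterial families stood at both ends of the range of changes, and none was called. Mrpl13, of a bacterial family, had the most negative change of all members. It was at 27.6 and 21.96 CPM in H2O2 replicates 1 and 2, against 39.2, 29.1 and 21.9 CPM in control replicates 1, 2 and 3. Control replicate 3 was as low as H2O2 replicate 2, so the groups overlapped. The log2 change was -0.35 ± 0.143 (SE; 95% interval -0.69 to -0.01), with an adjusted p of 0.171 in edgeR's quasi-likelihood test. Mrpl13 lies at chr15:55534095-55557312 (GRCm38.p6) and shares exon sequence with Mtbp on the opposite strand. Mrpl19, which contacts the small subunit, was at 27.1 and 31.6 CPM in H2O2 replicates 1 and 2, against 29.7, 38.01 and 37.5 CPM in control replicates 1, 2 and 3. H2O2 replicate 2 lay above control replicate 1, and within each set the H2O2 library was lower. Its log2 change was -0.20 ± 0.083 (SE), with an adjusted p of 0.170 in the same test.

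Mrpl27 sits close to the peptidyl transferase centre in bacterial ribosomes. It was at 17.5 and 15.9 CPM in H2O2 replicates 1 and 2, against 13.3, 21.6 and 20.9 CPM in control replicates 1, 2 and 3. H2O2 was higher in set A (log2 change 0.40) and lower in set B (log2 change -0.42), and the interaction had an adjusted p of 0.166 in edgeR's quasi-likelihood test. Mrpl34, a small protein of a bacterial family, had the most positive change. It was at 12.5 and 13.5 CPM in H2O2 replicates 1 and 2, against 11.6, 9.91 and 10.4 CPM in control replicates 1, 2 and 3. Both H2O2 libraries were above all 3 controls. The log2 change was 0.28 ± 0.129 (SE; 95% interval -0.02 to 0.59), with an adjusted p of 0.209 in the same test.

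The stalk proteins hold and recruit translation factors or guide transfer RNA away from the ribosome. Over the 4 genes Mrpl1, Mrpl10, Mrpl11 and Mrpl12 the median log2 change was -0.08, and 0 were called. Mrpl12, the stalk protein that also binds the mitochondrial RNA polymerase, was at 21.8 and 23.4 CPM in H2O2 replicates 1 and 2, against 23.2, 26.3 and 26.3 CPM in control replicates 1, 2 and 3. H2O2 replicate 2 just exceeded control replicate 1, and the log2 change was -0.14 with an adjusted p of 0.374 in edgeR's quasi-likelihood test. Mrpl11, at the base of that stalk, was at 19.3 and 22.9 CPM in H2O2 replicates 1 and 2, against 20.2, 20.00 and 19.4 CPM in control replicates 1, 2 and 3. One H2O2 library lay below and the other above all controls, and the log2 change was 0.10 with an adjusted p of 0.619.

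Proteins at the exit of the peptide tunnel meet the new chain as it reaches the inner membrane. Over the 6 genes of this list the median log2 change was -0.04, and 0 were called. Mrpl45, which anchors the mitoribosome to the membrane, was at 47.9 and 44.7 CPM in H2O2 replicates 1 and 2, against 51.4, 54.1 and 50.8 CPM in control replicates 1, 2 and 3. Both H2O2 libraries lay below all controls, by little. The log2 change was -0.17 ± 0.078 (SE), with an adjusted p of 0.202 in edgeR's quasi-likelihood test. Mrpl17 was at 32.6 and 28.8 CPM in H2O2 replicates 1 and 2, against 27.3, 36.7 and 37.3 CPM in control replicates 1, 2 and 3. It was higher with H2O2 in set A and lower in set B, and the groups overlapped. Within set B alone Mrpl17 was the 1 member called, at a log2 change of -0.37 ± 0.095 (SE) and an adjusted p of 0.0341 in edgeR's quasi-likelihood test. In that fit 6.49% of all genes were called lower, and its single H2O2 library is assumed to vary like the 2 controls. Over all 5 libraries the log2 change of Mrpl17 was -0.09 with an adjusted p of 0.719, and without H2O2 replicate 2 it was 0.25. Mrpl17 was singled out after its values were seen.

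Over the 7 genes of the central protuberance, the crown of the large subunit, the median log2 change was -0.02, and 0 were called. Mrpl18, whose bacterial counterpart binds 5S ribosomal RNA, was at 37.2 and 49.03 CPM in H2O2 replicates 1 and 2, against 37.95, 43.02 and 44.5 CPM in control replicates 1, 2 and 3. The H2O2 libraries lay on either side of all 3 controls, and the log2 change was 0.08. Mrpl18 shares exon sequence with Tcp1 on the opposite strand.

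Large-subunit proteins with enzyme-like origins gave no called change. Mrpl44, an RNase III-like protein, was at 24.4 and 22.9 CPM in H2O2 replicates 1 and 2, against 26.04, 22.96 and 21.3 CPM in control replicates 1, 2 and 3. The groups overlapped and the log2 change was -0.01. Mrpl58, a peptidyl-tRNA hydrolase built into the large subunit, was at 11.8 and 10.8 CPM in H2O2 replicates 1 and 2, against 11.9, 13.3 and 12.6 CPM in control replicates 1, 2 and 3. Both H2O2 libraries were below the controls, with a gap to control replicate 1 that did not exceed the spread of the controls, and the log2 change was -0.15.

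Large-subunit proteins without a bacterial counterpart included those ranked next to Mrpl13 at the lower end. Mrpl54 was at 5.26 and 6.35 CPM in H2O2 replicates 1 and 2, against 6.45, 7.43 and 7.87 CPM in control replicates 1, 2 and 3. The groups did not overlap, H2O2 being lower, and the log2 change was -0.28 with an adjusted p of 0.255 in edgeR's quasi-likelihood test. Mrpl57 was at 11.2 and 9.26 CPM in H2O2 replicates 1 and 2, against 10.6, 12.6 and 13.1 CPM in control replicates 1, 2 and 3. It was lower with H2O2 in set B and not in set A, and the log2 change was -0.23 with an adjusted p of 0.394. Mrpl53 was at 9.05 and 12.05 CPM in H2O2 replicates 1 and 2, against 7.32, 9.61 and 11.04 CPM in control replicates 1, 2 and 3. It was higher with H2O2 within each set while the groups overlapped across sets, and the log2 change was 0.26 with an adjusted p of 0.260. By origin, the 30 large-subunit members of bacterial families had a median log2 change of -0.06 (21 below 0) and the 19 without a bacterial family -0.06 (15 below 0).

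In the small subunit the decoding site and the message channel were measured through several members. Mrps12, which lines the decoding centre, had the most positive small-subunit change. It was at 7.69 and 9.07 CPM in H2O2 replicates 1 and 2, against 6.80, 8.28 and 7.19 CPM in control replicates 1, 2 and 3. H2O2 replicate 1 lay below control replicate 2, and the log2 change was 0.21 (95% interval -0.13 to 0.54) with an adjusted p of 0.384 in edgeR's quasi-likelihood test. Mrps21 was at 27.7 and 29.7 CPM in H2O2 replicates 1 and 2, against 24.8, 25.6 and 24.8 CPM in control replicates 1, 2 and 3. Both H2O2 libraries were above all controls, whose own values lay close together. The log2 change was 0.20 ± 0.088 (SE), with an adjusted p of 0.188 in the same test. Mrps24, which belongs to the bacterial S3 family at the message entry, had the most negative change. It was at 11.5 and 13.2 CPM in H2O2 replicates 1 and 2, against 12.6, 15.5 and 16.8 CPM in control replicates 1, 2 and 3. H2O2 replicate 2 lay above control replicate 1, and the log2 change was -0.22 with an adjusted p of 0.279.

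Mutations in MRPS16 and MRPS22 cause mitochondrial disease in humans. Mrps16 was at 16.3 and 17.1 CPM in H2O2 replicates 1 and 2, against 17.8, 17.7 and 19.8 CPM in control replicates 1, 2 and 3. Each H2O2 library was below every control, and the log2 change was -0.13. Mrps22 was at 12.3 and 10.7 CPM in H2O2 replicates 1 and 2, against 11.04, 13.4 and 12.6 CPM in control replicates 1, 2 and 3. The groups overlapped and the log2 change was -0.09. Mrps10 was the small-subunit member whose change differed most between the sets. It was at 19.2 and 18.1 CPM in H2O2 replicates 1 and 2, against 17.2, 22.7 and 24.6 CPM in control replicates 1, 2 and 3. It was higher with H2O2 in set A (log2 change 0.16) and lower in set B (log2 change -0.38).

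At the lower end of the small-subunit changes, Mrps31 was at 9.87 and 12.2 CPM in H2O2 replicates 1 and 2, against 12.3, 12.2 and 14.1 CPM in control replicates 1, 2 and 3. The groups met at 12.2 CPM, a value of both H2O2 replicate 2 and control replicate 2, and the log2 change was -0.19. Mrps26 was at 12.9 and 10.6 CPM in H2O2 replicates 1 and 2, against 12.4, 13.7 and 13.4 CPM in control replicates 1, 2 and 3. H2O2 replicate 1 lay among the controls and the log2 change was -0.17. At the upper end, Mrps28 was at 3.72 and 4.47 CPM in H2O2 replicates 1 and 2, against 3.31, 3.81 and 4.15 CPM in control replicates 1, 2 and 3. As the least abundant member it rests on 57 to 69 counts a library, and its log2 change was 0.17 with overlapping groups. Mrps14 was at 22.8 and 25.9 CPM in H2O2 replicates 1 and 2, against 20.3, 24.8 and 22.4 CPM in control replicates 1, 2 and 3. The groups overlapped, and the log2 change was 0.14.

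The 3 Mrps18 genes are paralogs whose products occupy different places in the mitoribosome. Mrps18a was at 16.4 and 17.8 CPM in H2O2 replicates 1 and 2, against 15.6, 18.1 and 14.4 CPM in control replicates 1, 2 and 3. Mrps18b was at 25.4 and 29.5 CPM in H2O2 replicates 1 and 2, against 22.5, 29.9 and 27.4 CPM in control replicates 1, 2 and 3. Mrps18c was at 17.6 and 16.7 CPM in H2O2 replicates 1 and 2, against 17.3, 18.5 and 15.97 CPM in control replicates 1, 2 and 3. For each of them the groups overlapped, and the log2 changes were 0.11 for Mrps18a, 0.10 for Mrps18b and -0.01 for Mrps18c. Mrps30, the other small-subunit name with a place in the large subunit, was at 17.97 and 18.1 CPM in H2O2 replicates 1 and 2, against 20.6, 18.5 and 20.1 CPM in control replicates 1, 2 and 3. Both H2O2 libraries were below all controls, and the log2 change was -0.14 with an adjusted p of 0.445 in edgeR's quasi-likelihood test. Mrps36 was at 20.1 and 22.5 CPM in H2O2 replicates 1 and 2, against 18.4, 22.4 and 22.2 CPM in control replicates 1, 2 and 3. The groups overlapped and the log2 change was 0.06.

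Counting members by overlap alone, 3 had both H2O2 libraries above all 3 controls (Mrpl20, Mrpl34 and Mrps21), while 13% of all genes tested did so. Another 11 had both H2O2 libraries below all 3 controls, while 10.7% of all genes did so. These were Mrpl14, Mrpl15, Mrpl43, Mrpl45, Mrpl47, Mrpl50, Mrpl54, Mrpl58, Mrps9, Mrps16 and Mrps30. The 3 of 78 lie below that background and the 11 of 78 somewhat above theirs.

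Members were called between the library sets and not between the treatments. The first principal component of the 78 genes (64.4% of their variance) put both set A libraries on one side and the 3 set B libraries on the other, and H2O2 replicate 2 stood apart on the second (18.2%). The set difference was called for 11 of the 78 (edgeR's quasi-likelihood test of the set term, adjusted p of at most 0.05), while 36% of all genes tested were called. Lower in set A were 9 Mrpl genes, and 16.9% of all genes were called in that direction. The sets are not groups of the study. Other cell features moved with them: in set A, 7 of 10 tested neutrophil markers and 7 of 8 basophil and mast cell markers were called lower (median log2 differences of -1.69 and -1.65). Of 13 tested dendritic cell markers 6 were called higher and 3 lower in set A, of 11 macrophage and monocyte markers 4 higher and 2 lower, of 2 T, NK and B cell markers 0 either way, and of 20 cell cycle genes all 20 higher. The part of these shifts in the members' set differences was not tested.

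Mrpl1, a protein of the L1 stalk beside the exit path of transfer RNA, was called with 1 of the 2 smallest adjusted p. It was at 23.1 and 30.4 CPM in H2O2 replicates 1 and 2, against 21.3, 35.7 and 33.05 CPM in control replicates 1, 2 and 3. Both set A libraries were below all 3 set B libraries, and the log2 difference of set A from set B was -0.56 ± 0.105 (SE), with an adjusted p of 0.00716 in edgeR's quasi-likelihood test. Mrpl39, a protein related to threonyl-tRNA synthetase, was at 41.5 and 54.1 CPM in H2O2 replicates 1 and 2, against 42.3, 54.4 and 57.7 CPM in control replicates 1, 2 and 3. Its log2 difference was -0.40 ± 0.074 (SE), with an adjusted p of 0.00716 and no overlap of the sets. Both were called between the sets in each of the 10 alternatives run for that difference: another scaling, library totals, no filter, DESeq2, limma-voom and each library left out in turn. With H2O2 their log2 changes were -0.06 for Mrpl1 and -0.04 for Mrpl39, neither called.

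Mrps27, a pentatricopeptide repeat protein of the small subunit, ran the other way. It was at 20.3 and 14.4 CPM in H2O2 replicates 1 and 2, against 22.4, 16.3 and 16.2 CPM in control replicates 1, 2 and 3. Both set A libraries were above all set B libraries. The log2 difference was 0.48 ± 0.101 (SE), with an adjusted p of 0.0112 in edgeR's quasi-likelihood test. Within each set the H2O2 library was the lowest, and the log2 change with H2O2 was -0.16 with an adjusted p of 0.364. Mrpl13 was the other member higher in set A, at a log2 difference of 0.50 and an adjusted p of 0.0308.

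The remaining 7 were lower in set A. The log2 differences were -0.56 for Mrpl52, -0.49 for Mrpl38, -0.46 for Mrpl53, -0.36 for Mrpl28, -0.29 for Mrpl18, -0.29 for Mrpl19 and -0.28 for Mrpl51, with adjusted p between 0.0207 and 0.0457 in edgeR's quasi-likelihood test. Mrpl18, Mrpl38 and Mrpl52 are 3 of the 7 genes of the central protuberance. Of the 4 stalk genes 1 was called lower in set A, and of the 6 exit tunnel genes 0. Of all 49 Mrpl genes 9 were called lower in set A, while 16.9% of all genes tested were. The central protuberance was not tested as a group. For 10 of the 11 called members the sets did not overlap, which their call between the sets largely fixed in advance. The sets did not overlap for 51.9% of all genes tested. That share covers called and uncalled genes, so it is not a like comparison. The median set difference was -0.15 over the Mrpl genes and -0.07 over the Mrps genes, beside 0.00 over all genes. With library totals in place of TMM factors 7 members were called, 6 of them among these 11. DESeq2 called 4, Mrpl1, Mrpl13, Mrpl39 and Mrps27. Without control replicate 1 the count was 3, without control replicate 2 it was 4 and without control replicate 3 it was 5, and the call of Mrps27 was lost without control replicate 1 (adjusted p of 0.0514, edgeR).

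**Figure D4:**
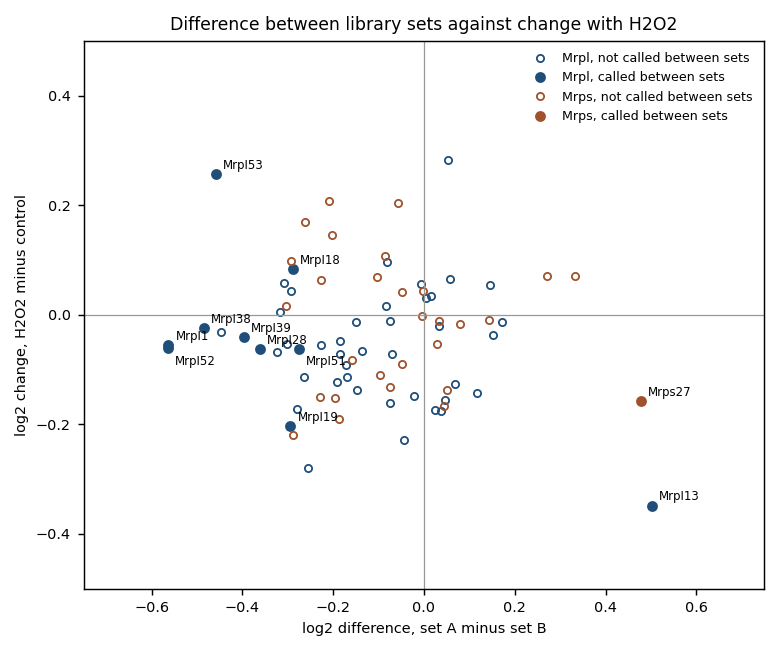
Log2 difference of set A from set B (horizontal axis) against log2 change with H2O2 (vertical axis) for the 78 genes; blue circles are Mrpl, brown circles Mrps, and filled circles are the 11 members called between the sets. Called members reach -0.56 and 0.50 on the set axis, while no member passed the threshold on the treatment axis.

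Other genes of mitochondrial translation were mostly not called, while 8.54% of all genes tested were called with H2O2 in either direction. Of 5 mitoribosome proteins with other names, 0 were called with H2O2. The most abundant, Dap3, a GTP-binding protein of the small subunit, was at 35.6 and 37.4 CPM in H2O2 replicates 1 and 2, against 34.7, 37.2 and 34.9 CPM in control replicates 1, 2 and 3. Its log2 change was 0.05 with an adjusted p of 0.749 in edgeR's quasi-likelihood test. Of 14 tested translation factors 0 were called. Tufm, the mitochondrial elongation factor Tu, was at 53.7 and 54.9 CPM in H2O2 replicates 1 and 2, against 51.0, 56.6 and 58.4 CPM in control replicates 1, 2 and 3, and its log2 change was -0.01 with an adjusted p of 0.966.

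Of 27 assembly factors, 1 was called, a smaller share than the 8.54% of all genes tested. Mettl17, a methyltransferase-like protein that binds the small subunit during its assembly, was at 9.58 and 12.9 CPM in H2O2 replicates 1 and 2, against 6.63, 8.76 and 7.74 CPM in control replicates 1, 2 and 3. The groups did not overlap. Its log2 change was 0.60 ± 0.132 (SE), with an adjusted p of 0.0417 in edgeR's quasi-likelihood test. The call was lost without the set term (adjusted p of 0.704) and in DESeq2 with the set term (adjusted p of 0.149), while limma-voom gave an adjusted p of 0.0396. Without H2O2 replicate 2 the adjusted p was 0.249, and without control replicate 3 it was 0.142.

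Of 18 genes of mitochondrial transcription and RNA processing 0 were called. Lrpprc, which stabilises mitochondrial messages, had a log2 change of 0.08 (adjusted p of 0.494 in edgeR's quasi-likelihood test). Tfam, which packages the mitochondrial genome, had -0.09 (adjusted p of 0.646), and Polrmt, the mitochondrial RNA polymerase, -0.07 (adjusted p of 0.796). Of 8 tested regulators of mitochondrial biogenesis 0 were called, and of 10 genes of matrix proteases and chaperones 0 were called.

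Cytosolic ribosomal proteins, which build the other ribosome of the cell, were read in the same fit. Of 83 tested, 8 were called lower and 0 higher, beside 563 lower and 480 higher of all 12209 genes tested. Of the 83 changes 80 were below 0, beside 48.4% of all genes, and the median log2 change was -0.23. Their summed level was 32251 and 34439 CPM in H2O2 replicates 1 and 2, against 35459, 42846 and 41260 CPM in control replicates 1, 2 and 3. The groups did not overlap. With library totals 29 were called, with DESeq2 16, with limma-voom 10, and without the set term 0. Of 80 nuclear respiratory chain subunits 1 was called higher and 1 lower, with a median log2 change of 0.00. These lists were not tested against the mitochondrial ribosomal genes.

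Other cell features moved beside these values. For scale, 563 of all 12209 genes tested were called lower with H2O2 and 480 higher. Of 13 tested dendritic cell markers 9 were called lower with H2O2, and the list summed to 8084 and 9073 CPM in H2O2 replicates 1 and 2, against 10024, 10591 and 10163 CPM in control replicates 1, 2 and 3. Of 20 cell cycle genes 19 were called lower, with sums of 813 and 441 CPM in H2O2 replicates 1 and 2, against 1862, 665 and 1070 CPM in the controls. Of 11 tested macrophage and monocyte markers 1 was called higher and 2 lower, with sums of 3937 and 3558 CPM in the H2O2 libraries, against 3351, 3143 and 3038 CPM in the controls. Of 10 tested neutrophil markers 1 was called higher and 2 lower, with sums of 1104 and 1896 CPM in the H2O2 libraries, against 641, 1233 and 1390 CPM in the controls. Of 8 basophil and mast cell markers 5 were called lower, with sums of 11.3 and 26.9 CPM in the H2O2 libraries, against 34.8, 59.4 and 85.5 CPM in the controls. Only 2 of 9 T, NK and B cell markers passed the filter, with 0 called and sums of 1.83 and 2.79 CPM in the H2O2 libraries, against 2.50, 5.68 and 4.88 CPM in the controls. The part of these shifts in the values of the mitochondrial ribosomal genes was not tested.

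Some members may share reads with other genes. For 33 of the 78 an annotated exon overlaps another gene, on the opposite strand for 28 and on the same strand for 8, and the strand setting of the counting is not given in the sources used here. For 3 members a pseudogene named after them is annotated, and values of such genes are uncertain to that extent.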

How the data were processed

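RNA was read on DNA nanoballs, per the labels' protocols. Each deposited table lists unnormalized estimated counts by gene; 8.38% to 9.03% of a library's entries were not whole numbers. Per the submitters' processing notes HISAT, Bowtie2 and the build GRCm38.p6 were used; which program counted reads, with which annotation and strand setting, is not given in the sources used here. Gene numbers were matched to symbols through RefSeq's table of GRCm38.p6 for 17520 of 17567 genes (99.7%). Transcript lengths and overlapping exons came from GENCODE M21 on the same assembly.

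Estimated counts were rounded, filtered with filterByExpr (minimum count 10, minimum total 15) to 12209 genes and scaled with TMM factors, which also define CPM. Libraries were put in set A by at least 100 Y-linked counts. H2O2 was compared with control by edgeR's quasi-likelihood F test with the set as a covariate (2 residual degrees of freedom), with Benjamini-Hochberg adjustment over all 12209 genes. The naming rule that picks the genes reads no measured value, but it, the lists, the set term and the rule for named genes were chosen with earlier results of these data known. That rule takes, per subunit, the 4 highest and 4 lowest log2 changes, the 3 highest levels per kilobase, the largest gap between the sets and genes of known role. Members called between the sets and Mrpl17 were added after their values were seen. An exact permutation test of 3 against 2 libraries cannot go below 0.1. Alternatives were no set term, other scaling, no filter, unrounded counts, DESeq2, limma-voom, set B alone, a replicate block and leaving out each library. DESeq2 and limma-voom without the set term, and set differences with 1 library left out, were added after the data were seen. Only edgeR's quasi-likelihood fit with the set term was tested on simulated counts, and the outcome is not given here. The versions were edgeR 4.0.16, DESeq2 1.42.0 and limma 3.58.1 under R 4.3.3.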

Additional observations from a re-analysis of the deposited data

How the results depend on the processing

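No Mrps gene was called with H2O2 under any alternative run, and no Mrpl gene except 1, Mrpl17, within set B only and without control replicate 1. Leaving out 1 library at a time, the number of Mrpl genes called lay between 0 and 1. Both calls of Mrpl17 rest on the same contrast. Without control replicate 1 the set term takes up H2O2 replicate 1, so H2O2 is compared with control within set B alone. The log2 change of Mrpl17 was -0.37 in each fit. The median log2 change of the Mrpl genes stayed below 0 in all alternatives, at -0.11 to -0.01 with 1 library left out. That of the Mrps genes lay between -0.05 and 0.07, the highest without H2O2 replicate 2. With the replicate block in place of the set term, 0 members were called, and the medians were -0.05 for Mrpl and 0.01 for Mrps. The replicate numbers were given in accession order and pair nothing by design. Deviations from the group means correlated at 0.81 between control replicate 1 and H2O2 replicate 1. The correlation was 0.714 between control replicate 2 and H2O2 replicate 2, and 0.66 between control replicate 3 and H2O2 replicate 2. These correlations followed the sets. The deviations of the 2 distinct H2O2 libraries mirror each other, so the correlations are not separate agreements. Replicate 3 has no distinct H2O2 library. The number of members called between the sets, 11, was 7 with library totals (6 of the 11), 7 with no filter on low counts, 4 with DESeq2, 14 with limma-voom (all 11 and 3 others), and between 3 and 10 with 1 library left out, which was added after the data were seen. Without H2O2 replicate 1, 6 of the 10 were among the 11, and without H2O2 replicate 2, 5 of the 8; Mrpl17, Mrpl27 and Mrps10 were new in both and Mrpl35 in the first. In both fits the set term compares control replicate 1 with control replicates 2 and 3 alone, so they repeat the same contrast. Why these members differed among the controls was not tested. Of 750 values of the 40 named members under the alternatives, 700 kept their side of the threshold, 48 set differences lost it, 2 values of Mrpl17 with H2O2 passed it, and 27 uncalled values in 16 members changed sign; set differences enter this tally for the 11 called members alone, so set calls gained by others are not in it. With 5 libraries and 57 to 946 counts per member, the intervals of 4 Mrpl genes reach past a 1.5-fold change.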
